A study of Homo sapiens with 35 samples.

Results

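RUNX1, RUNX2, RUNX3 and CBFB encode the core binding factor, and their chromatin was described here in human blood progenitors. The 4 genes were taken by name from the 19974 protein-coding genes of a RefSeq table. Of the 308732 peaks of open chromatin deposited for the series, 199 touched one of these genes or its surroundings within 1 kb, and 372 lay within 100 kb. The peaks came from ATAC-seq, in which a transposase cuts accessible DNA, on nuclei of blood progenitors grown from the human embryonic stem cell line H1. The labels used here describe 35 libraries from 6 days between day 10 and day 20 of differentiation, while the series' design text counts 44. Of the 35, 12 came from cultures named doxee17 that received doxycycline to switch on ectopic MYC and 11 from untreated doxee17 cultures, both in batch 1, and 12 from untreated H1 cultures in batch 2. Neither the promoter of the MYC transgene nor the number of clones behind doxee17 is given in the sources used here. The peak list is a single one for the series and names no library, so which of them it was made from is not given in the sources used here. No value per library, difference between groups or replicate error could therefore be given, and each value below belongs to the pooled list.

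The RUNX proteins bind DNA through their runt domain, and CBFB, which does not itself contact DNA, joins them and strengthens that binding. RUNX1 is needed for blood cells to emerge from endothelium in the embryo, RUNX2 for bone formation, and RUNX3 acts in T lymphocytes and sensory neurons. Each RUNX gene is transcribed from a distal promoter at its 5′ end and a proximal promoter farther inside, which give proteins with different N-termini. In acute myeloid leukaemia, RUNX1 and CBFB are often joined to other genes by chromosome rearrangements.

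The promoter sequences are shown because the RUNX starts differ in base composition and in how far they were open. The promoter table of RefSeq (GRCh38.p14) held 5 starts for 3 of the 4 genes: the proximal start of RUNX1 and both starts of RUNX2 and RUNX3. The 250 bases before each start follow, read 5′ to 3′ on the strand of the gene. Capitals mark TGTGGT or its reverse complement ACCACA, the core letters that RUNX proteins recognise. They lie at chr6:45328080-45328329 (+) and chr6:45422025-45422274 (+) for RUNX2, at chr1:24965011-24965260 (−) and chr1:24930277-24930526 (−) for RUNX3, and at chr21:34888700-34888949 (−) for RUNX1.
RUNX2 distal: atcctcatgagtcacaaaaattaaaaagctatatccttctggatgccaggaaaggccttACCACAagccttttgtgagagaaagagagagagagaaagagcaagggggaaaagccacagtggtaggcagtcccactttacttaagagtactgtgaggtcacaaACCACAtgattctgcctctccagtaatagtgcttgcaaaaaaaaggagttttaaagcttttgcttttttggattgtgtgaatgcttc
RUNX2 proximal: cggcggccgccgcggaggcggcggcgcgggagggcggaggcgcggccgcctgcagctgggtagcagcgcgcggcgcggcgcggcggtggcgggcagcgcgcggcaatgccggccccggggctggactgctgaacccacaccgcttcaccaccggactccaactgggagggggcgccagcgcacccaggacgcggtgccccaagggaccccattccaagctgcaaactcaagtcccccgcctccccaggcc
RUNX3 distal: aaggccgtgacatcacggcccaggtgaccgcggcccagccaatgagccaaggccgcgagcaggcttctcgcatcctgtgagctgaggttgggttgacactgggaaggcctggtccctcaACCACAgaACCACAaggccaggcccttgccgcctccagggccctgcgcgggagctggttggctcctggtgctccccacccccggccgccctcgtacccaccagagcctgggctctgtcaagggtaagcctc
RUNX3 proximal: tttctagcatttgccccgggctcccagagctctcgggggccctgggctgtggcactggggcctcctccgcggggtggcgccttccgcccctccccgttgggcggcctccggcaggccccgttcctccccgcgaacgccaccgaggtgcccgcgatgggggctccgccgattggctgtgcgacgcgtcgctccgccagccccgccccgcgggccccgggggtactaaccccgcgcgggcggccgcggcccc
RUNX1 proximal: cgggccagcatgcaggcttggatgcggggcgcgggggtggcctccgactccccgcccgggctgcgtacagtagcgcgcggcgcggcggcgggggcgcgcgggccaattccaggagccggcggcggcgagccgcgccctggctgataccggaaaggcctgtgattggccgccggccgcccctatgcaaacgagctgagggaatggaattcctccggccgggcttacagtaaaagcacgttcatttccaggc

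Every start of the family was open, and in each RUNX gene the proximal start carried the higher peak. Values are fold enrichments of a peak's summit, its highest point, over the caller's background, as the authors deposited them. Intervals are exact Poisson 95% intervals from the number of overlapping reads or fragments that the fold implies, and cover counting error only. At the distal start of RUNX1 (chromosome 21, 35049302) the fold was 80.9 (79.1 to 82.8), and at the proximal start (34888699), 161 kb farther along the gene, it was 101 (99.4 to 103.5). RUNX3 had 38.4 (37.2 to 39.7) at its distal start (chromosome 1, 24965010) and 74.3 (72.6 to 76.1) at its proximal start (24930276). RUNX2 was the least open of the RUNX genes, with 8.41 (7.84 to 9.02) at the distal start (chromosome 6, 45328330) and 18.8 (17.9 to 19.7) at the proximal start (45422275). Within each gene these intervals did not overlap. CBFB, with a single start considered here (chromosome 16, 67029149), had 85.8 (84.0 to 87.7).

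In pooled bulk nuclei, a weak peak in all cells and a strong one in few cells cannot be told apart. The summit lay 17 to 204 bases before the annotated position at all 7 starts, and the position itself was under the peak each time. Peaks at proximal starts were wider than those at distal starts of the same gene: 11476 against 5662 bases in RUNX1, 3580 against 730 in RUNX2 and 6449 against 2327 in RUNX3. The RUNX1 proximal peak (chr21:34880437-34891912) was the 150th widest of the whole list. All 4 genes had a summit within 1 kb of their 5′ end, as did 78.1% of the 15813 coding genes whose strand was known. Among these genes the fold at the 5′ end of CBFB lay at the 63.6th percentile, that of RUNX1 at the 61.8th, RUNX3 at the 47.3rd and RUNX2 at the 33.5th. The start of a gene did not place any of the 4 near the top of the genome.

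Proximal peaks also covered starts of non-coding genes, so their signal cannot be given to the RUNX start alone. The antisense transcript RUNX3-AS1 starts 181 bases from the proximal start of RUNX3 on the opposite strand, and the summit lay 23 bases from it. LOC124901324, also antisense, starts 59 bases from the proximal start of RUNX2, with the summit 10 bases away. RUNX2-AS1, beyond the 3′ end of RUNX2, had no summit within 1 kb of its start. Neither RUNX1-AS1, whose start at 34836313 had its own peak of 32.7-fold, nor RUNX1-IT1, with 4.41-fold within 1 kb, starts near a RUNX1 start of the table.

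CpG content separated the proximal promoters from the distal ones of RUNX2 and RUNX3. The distal start of RUNX1 has no sequence in the promoter table. In the 300 bases from 250 before to 50 after the start, the proximal promoters of RUNX1, RUNX2 and RUNX3 held 40, 39 and 38 CpG dinucleotides, all above the 90th percentile of 34961 annotated promoters. The distal promoter of RUNX3 held 15 and that of RUNX2 held 2, with G and C making up 66.3% and 42.7% of the bases. Across all promoters, CpG count and the highest fold within 1 kb of the start rose together (Spearman correlation 0.634 over 34961 promoters, which share one peak list and overlap within genes, as a description). A summit lay within 1 kb of 67.6% of them. Among promoters with a CpG count within 2 of their own, the RUNX1 proximal start stood at the 59.7th percentile of fold, RUNX3 proximal at the 43.4th and RUNX2 proximal at the 20.8th. The distal starts stood at the 51.7th (RUNX3) and the 86.5th percentile (RUNX2). RUNX2 thus had a weak peak for a CpG-rich promoter at its proximal start (median of its class 85.4-fold), and a peak at a CpG-poor distal start whose class had a median of 0, that is, no summit.

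**Figure D1:**
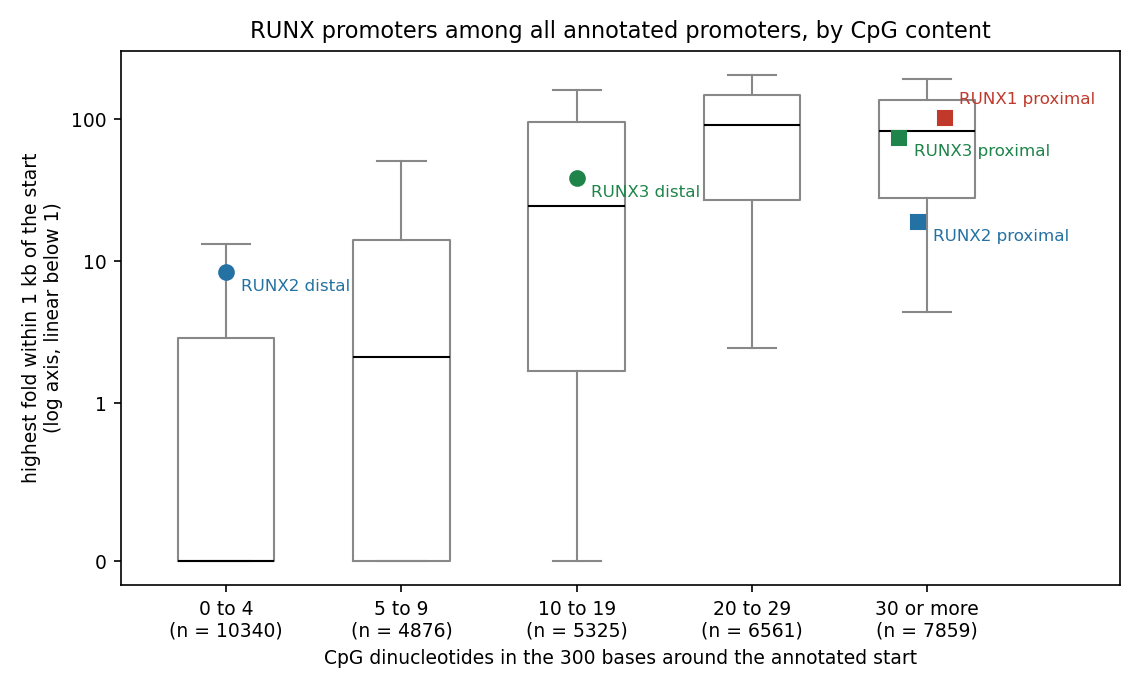
Boxes show the highest fold within 1 kb of all 34961 annotated starts (log axis, linear below 1), grouped by CpG count (median, quartiles, and whiskers at the 10th and 90th percentiles). Circles are the distal starts of RUNX2 and RUNX3, and squares the proximal RUNX starts. RUNX1 distal is absent, having no sequence in the promoter table. RUNX2 proximal at 18.8 lies under the lower quartile of its class (28.0), and RUNX2 distal at 8.41 above the upper quartile of its own (2.88).

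In the genome at large, the innermost start was the higher one in a minority of genes. Of 1373 coding genes with annotated starts over 10 kb apart, the innermost start had the higher fold in 30.1%, and both had a summit in 52.8%. Equal folds, such as no summit at either start, counted as not higher. The share therefore does not give how often the outer start was the higher one. Of the 224 in which the inner promoter had at least 10 more CpG, as in RUNX2 and RUNX3, the inner start was higher in 71.9%. RUNX2 and RUNX3 therefore followed the majority of genes with that CpG arrangement.

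The core letters TGTGGT, searched on both strands and with overlaps allowed, were found at the distal starts of RUNX2 and RUNX3 and at none of the 3 proximal ones. The distal start of RUNX1 has no sequence in the promoter table and was not searched. The RUNX2 distal promoter held 4 matches, beginning at positions -191, -87, 17 and 25 from the start (1 is the first transcribed base). Only 5 of the 34961 promoters (0.0143%) held 4 or more. RUNX3 distal held 2, at -131 and -123, which 1.31% of promoters reached. At least 1 match stood in 13.1% of all promoters, and in 4.58% to 6.30% of those with a CpG count within 2 of a proximal RUNX promoter. The GATA letters AGATAA and the MYC E-box CACGTG, on either strand, were in none of the 5 promoters, against 10.3% and 7.27% of all promoters. AGATAA stood in 0.406% to 1.097% of promoters with a CpG count like that of a proximal RUNX promoter, in 7.48% of those like RUNX3 distal and in 21.4% of those like RUNX2 distal. CCGGAA, the core of ETS sites, occurred once, in RUNX1 proximal (17.2% of all promoters and 26.8% of those of like CpG count). The E-box CAGCTG occurred in RUNX2 proximal, with 2 matches, a number that 2.05% of all promoters and 1.37% of those of like CpG count reached. A match is a run of letters and not a shown binding site, and peak sequence outside these windows was not analysed here.

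The distal promoters of RUNX2 and RUNX3 shared a run of 18 bases that holds a pair of these cores on the same strand. It is shown in capitals with the bases around it, at chr6:45328339-45328366 (+), just after the RUNX2 start, and chr1:24965121-24965148 (−), before the RUNX3 start.
RUNX2: acaaaCAACCACAGAACCACAAGtgcgg
RUNX3: tccctCAACCACAGAACCACAAGgccag
Of all 34961 promoters, these were the only 2 with this run. Both RUNX3 cores and 2 of the 4 RUNX2 cores lie in it. The looser pattern ACCACANNACCACA, on either strand, stood in 4 promoters, the others being those of OR52N2 and LOC105369321. The run and the pattern were looked for after the sequences had been seen. The RUNX3 run lay under the 38.4-fold peak 19 to 36 bases from the summit, and the RUNX2 run under the 8.41-fold peak, 31 to 48 bases from the summit.

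Inside the genes, RUNX1 and RUNX3 were covered by peaks over about as much of their length as the top few percent of long genes, RUNX2 over less and CBFB over least. RUNX1 (chr21:34787801-35049302, 261.5 kb) held 109 summits, or 41.7 per 100 kb, and 49.0% of the gene lay under peaks. RUNX3 (chr1:24899511-24965138, 65.6 kb) held 31, or 47.2 per 100 kb, with 57.6% covered. RUNX2 (chr6:45328330-45551082, 222.8 kb) held 43, or 19.3 per 100 kb, with 13.5% covered. CBFB (chr16:67029149-67101058, 71.9 kb) held 8, or 11.1 per 100 kb, with 8.17% covered. Among the 6258 coding genes of 50 kb or more, covered share had a median of 7.88%. RUNX3 stood at the 99.4th percentile of these, RUNX1 at the 98.8th, RUNX2 at the 73.8th and CBFB at the 51.7th. With the more significant 50% of the peaks alone, these became the 99.3rd, 98.5th, 73.0th and 50.95th. All values include what neighbouring or nested genes inside the same stretch contribute.

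**Figure D2:**
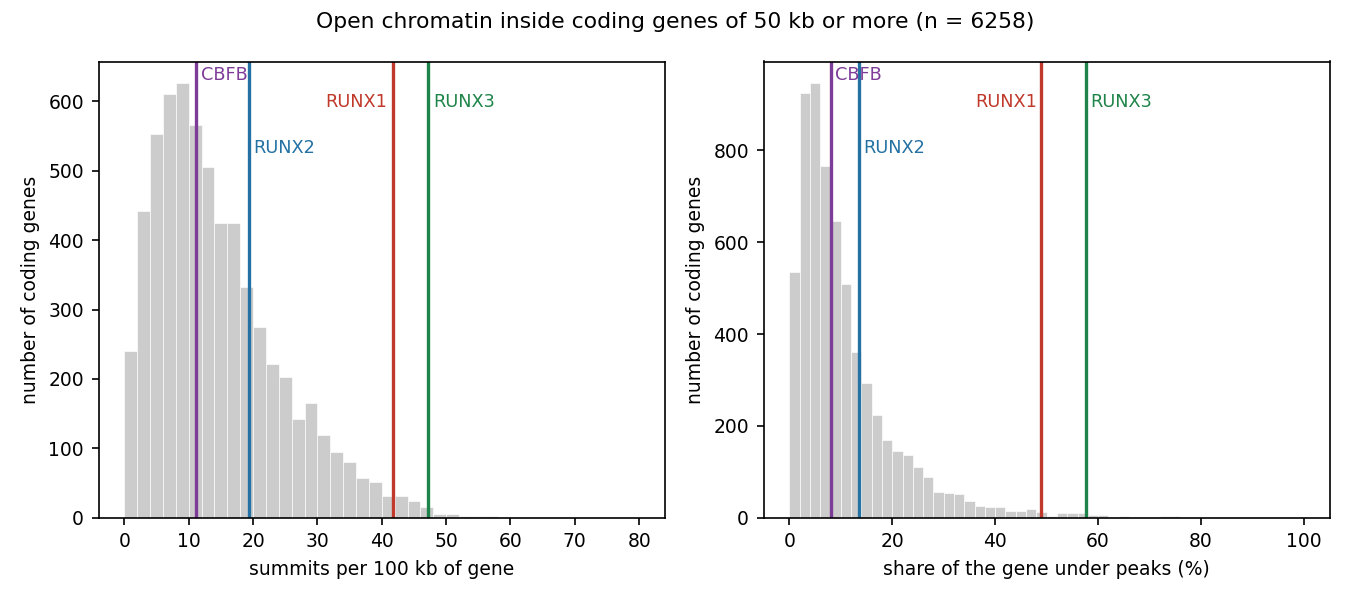
Histograms of the 6258 coding genes of 50 kb or more by summits per 100 kb of gene (left) and by the percentage of the gene under peaks (right), with a vertical line for each gene of the family. RUNX1 and RUNX3 lie in the right tail of both, at 41.7 and 47.2 summits per 100 kb, while CBFB (11.1) lies near the bulk.

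Most of these peaks were weak. Under 5-fold lay 71.6% of the RUNX1, 69.8% of the RUNX2, 74.2% of the RUNX3 and 75% of the CBFB summits, against 62.2% of the whole list. At least 10-fold were 14 of 109 in RUNX1, 8 of 43 in RUNX2, 3 of 31 in RUNX3 and 0 of 8 in CBFB, against 22.1% of the list. At least 50-fold were 4, 1, 2 and 0, against 4.77% of the list. By summits inside the gene, the share of 10-fold peaks was thus below that of the list in all 4 genes. The share of 50-fold peaks was above it in RUNX3 alone, on 2 peaks. The peak at the 5′ end of each gene, 85.8-fold in CBFB, had its summit just outside the gene and is not in these counts. Median width was 713 bases in RUNX1 and 619 in RUNX3, against 409 in RUNX2, 435.5 in CBFB and 482 overall.

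In each RUNX gene the interval between the starts was covered less than the rest of the gene. In RUNX1, the 161 kb between the starts held 39.9 summits per 100 kb and were 37.4% covered, while the 100.9 kb after the proximal start held 44.6 and were 67.4% covered. RUNX3 had 49.5% covered between the starts and 66.8% after, while its summits were about as dense in both, at 48.8 and 45.5 per 100 kb. In RUNX2 the 93.9 kb between the starts were the emptiest of these stretches, with 11.7 summits per 100 kb and 8.95% covered, against 24.8 and 16.8% after the proximal start.

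The highest peak inside RUNX1 lay in neither promoter. It reached 113-fold (110.8 to 115.1) at chr21:35025252-35029327, 22.4 kb along the gene from the distal start, between the 2 starts. The first intron of RUNX1 holds a well studied enhancer that is active where blood cells emerge, and whether this peak is that element was not tested. Away from gene ends and annotated starts, the next were 58.5-fold at chr21:34865244-34866514, 22.95 kb past the proximal start and inside RUNX1-AS1, and 54.96-fold at chr21:34907318-34912663, 20.1 kb before that start. Peaks of 25.8-fold (chr21:34825694-34828269) and 25.03-fold (chr21:34994440-34995738) followed. The last belonged to a run of 4 neighbouring peaks from 17.2 to 25.03-fold between 51.8 and 56.4 kb from the distal start. A 6363-base peak at chr21:34870061-34876423, the next widest after the proximal promoter peak in the gene, reached only 4.22-fold.

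Away from gene ends and annotated starts, RUNX1 and RUNX3 held inner peaks of at least 50-fold and RUNX2 and CBFB did not. An inner peak is counted here when its summit lies inside the gene and more than 1 kb from every gene end and annotated start, and 17.4% of the 6258 long coding genes had one of 50-fold or more. By the highest such peak, RUNX1 (113) stood at the 97.3rd percentile, RUNX3 (83.3) at the 94.0th, RUNX2 (35.6) at the 71.3rd and CBFB (6.42) at the 12.3rd. At least 1 inner peak of 10-fold or more was present in 78.1% of these genes. RUNX1 had 12, RUNX2 6, RUNX3 2 and CBFB none.

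In RUNX3 the highest inner peak (83.3-fold, 81.5 to 85.2, chr1:24909199-24912241) lay 20.6 kb past the proximal start and exceeded both starts. A 29.5-fold peak (chr1:24954497-24955782) lay 9.84 kb from the 5′ end, between the starts. The other inner peaks of RUNX3 stayed under 10-fold, led by 9.79 (chr1:24926459-24927378) and 9.52 (chr1:24956901-24957444). A wide peak of 6092 bases with 22.5-fold (chr1:24897374-24903465) straddled the 3′ end, its summit 1.21 kb beyond it.

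The strongest peak inside RUNX2 belonged to the start of another gene. At 124-fold (122.1 to 126.7, chr6:45376372-45378920) it lay 49.7 kb into RUNX2, 144 bases from the start of SUPT3H, a subunit gene of the SAGA transcription coactivator. SUPT3H runs on the opposite strand and overlaps the distal part of RUNX2. The 250 bases before that start (chr6:45377935-45378184, −) are shown because a count of peaks over RUNX2 would otherwise take them for its own.
SUPT3H: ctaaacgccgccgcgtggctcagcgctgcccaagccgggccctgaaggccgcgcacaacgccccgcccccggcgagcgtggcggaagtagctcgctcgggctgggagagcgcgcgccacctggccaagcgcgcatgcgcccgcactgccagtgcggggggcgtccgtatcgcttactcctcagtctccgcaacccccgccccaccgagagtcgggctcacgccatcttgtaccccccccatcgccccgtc
This promoter held 35 CpG in its 300 bases, against 2 at the RUNX2 distal start. RUNX2's own inner peaks were lower: 35.6-fold (chr6:45445351-45446542) and 26.9-fold (chr6:45436495-45437623) lay 23.7 and 14.6 kb past the proximal start. A 25.1-fold peak (chr6:45419379-45421038) lay just before that start, at 91.4 kb, and a 24.7-fold peak (chr6:45494636-45497045) at 168 kb. The peak just before the proximal start exceeded that of the start itself (18.8). The 4 summits between the distal start and the SUPT3H peak reached 2.25-fold at most.

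CBFB was open at its start and little inside. Its 8 inner summits ran from 1.65 to 6.42-fold, the highest at chr16:67055652-67056536, 26.8 kb from the start, and the next (5.92-fold) at chr16:67062531-67063717. The 20.2% of the covered sequence in its widest inner peak came to 1187 bases.

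**Figure D3:**
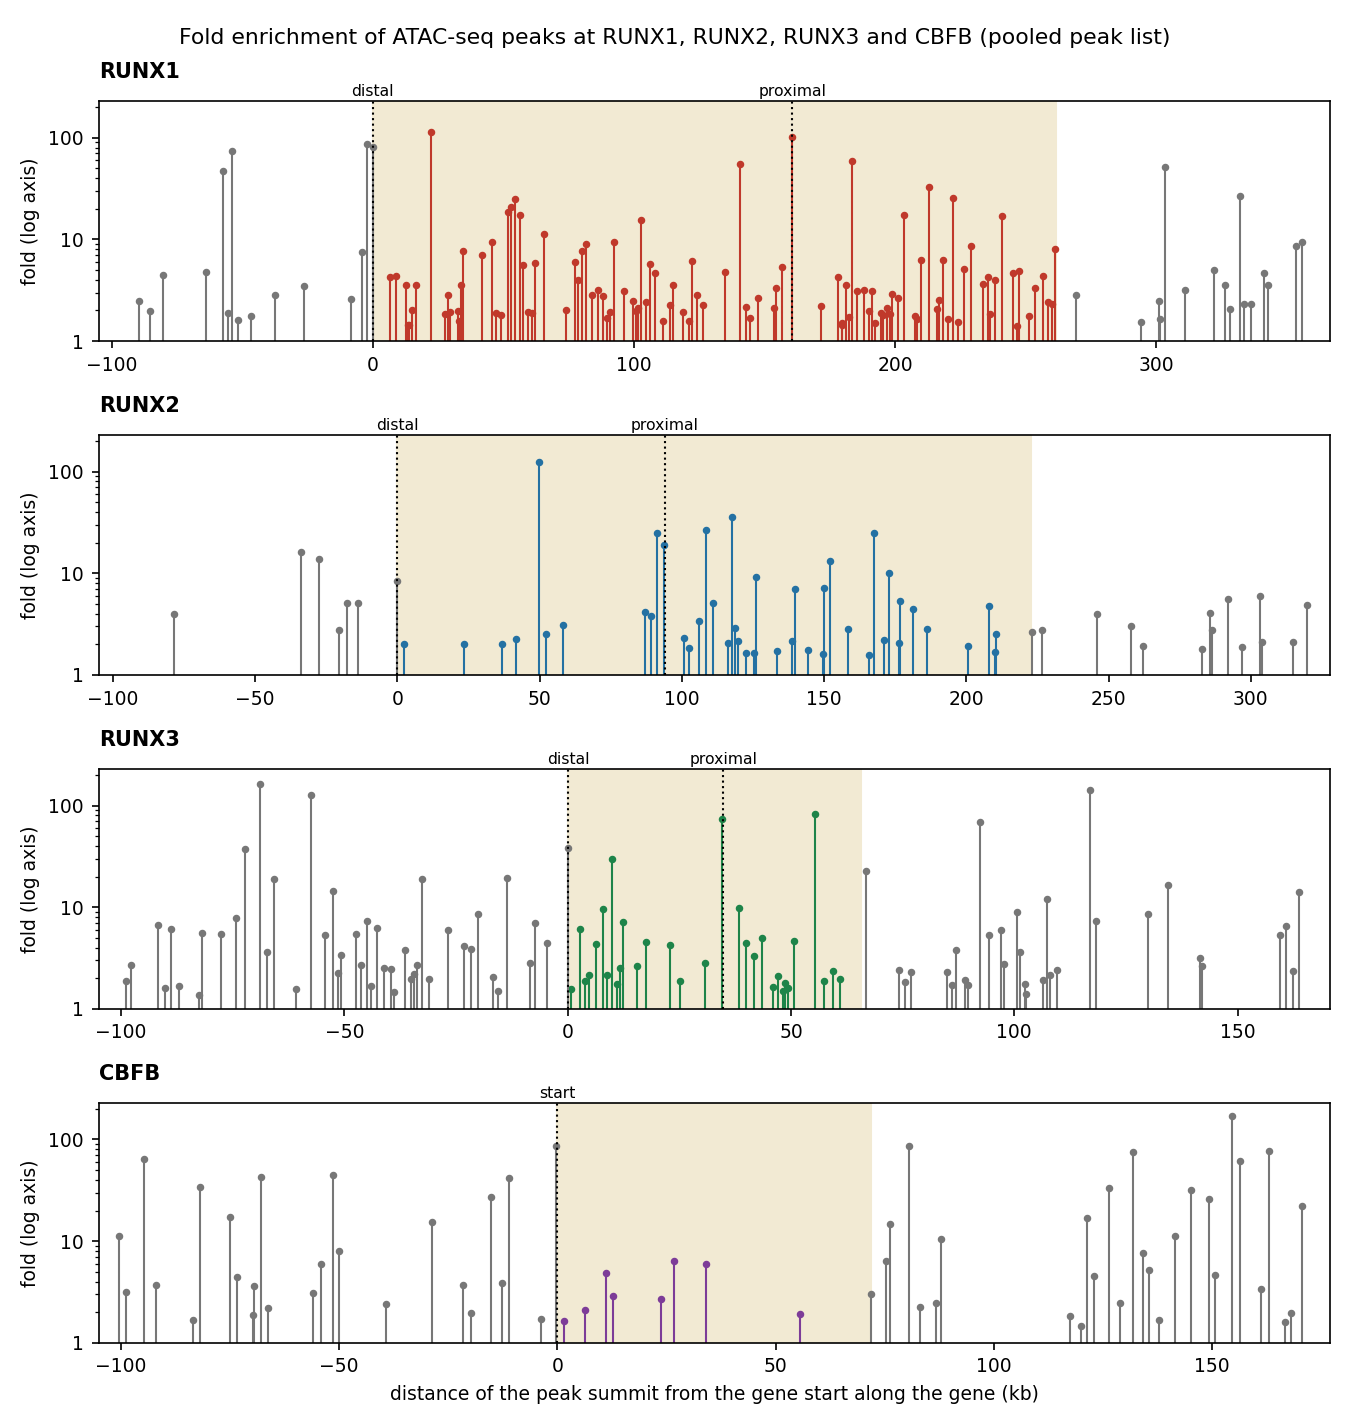
Each point is the summit of a peak, at its distance along the gene from the 5′ end (kb) and its fold (log axis), for peaks inside the gene (coloured, shaded span) and within 100 kb (grey); dotted lines mark annotated starts. RUNX1 is filled throughout, RUNX3 has its highest peaks outside the gene (161 and 143-fold), RUNX2 has a 124-fold peak at the SUPT3H start, and CBFB has none above 6.42-fold inside.

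Around the genes, RUNX3 had the most summits of the family within 100 kb, and its highest peaks lay outside it. From 1 to 100 kb beyond both ends, RUNX3 had 75 summits, CBFB 50, RUNX1 30 and RUNX2 19, at the 99.6th, 82.8th, 44.6th and 22.97th percentiles of all 19974 coding genes (median 33). Within 20 kb, RUNX3 and CBFB had the same density, 28.95 summits per 100 kb. Of the flanking peaks of RUNX3, 7 upstream and 6 downstream reached 10-fold, fewer than at CBFB. Upstream of RUNX3 alone there were 44 summits, the 99.8th percentile, and peaks covered 43.9% of that flank (97.0th percentile). No coding gene reaches into it, and the nearest, SYF2, lies 257 kb away. Both upstream percentiles run over all coding genes, with those of unknown strand read as plus. The strongest peaks formed a cluster: 128-fold (chr1:25020060-25025489) at 57.5 kb upstream, 19.1-fold (chr1:25026347-25031252), 161-fold (158.5 to 163.6, chr1:25032927-25036088) at 69.0 kb and 37.7-fold (chr1:25036330-25038340) at 72.2 kb. The microRNA gene MIR4425 lies under the 128-fold peak. Downstream of RUNX3, 143-fold (chr1:24847269-24850155) and 68.4-fold (chr1:24871387-24873266) peaks lay 51.3 and 26.8 kb past the 3′ end. Both stood between RUNX3 and its coding neighbour CLIC4, outside either gene. A peak in a flank was not tied to RUNX3 by any measurement here.

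Upstream of RUNX1 lay 14 summits (45.0th percentile) with a median of 3.16-fold, of which 3 reached 10-fold. An 87.4-fold peak (85.5 to 89.3, chr21:35050094-35051976) lay 2.16 kb before the distal start and was higher than the peak at that start, and peaks of 74.1-fold (chr21:35102367-35103699) and 46.8-fold (chr21:35105327-35107246) lay 53.9 and 57.3 kb upstream. No other coding gene lies within 985 kb on that side. Downstream, a 51.4-fold peak (chr21:34745401-34747077), 42.1 kb past the 3′ end, had its summit 112 bases from the start of the non-coding gene LINC01426. A 26.7-fold peak (chr21:34716891-34717876) lay inside CLIC6. Around RUNX2 the highest flanking summit was 16.3-fold, 33.8 kb upstream within SUPT3H (chr6:45294107-45294797). The highest downstream was 5.96-fold.

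The flanks of CBFB were crowded with other genes: 4 other coding genes reached into its upstream and 10 into its downstream 100 kb, and 30 of its 50 flanking summits lay inside one. The highest, 169-fold, was at the start of MATCAP1 (chr16:67183107-67184870), and 85.9-fold (chr16:67109010-67111151) at the start of PHAF1, 8.73 kb past the CBFB 3′ end. At its upstream neighbour CES4A the 5′ end had no summit within 1 kb. At least 10-fold were 8 of its 23 upstream and 13 of its 27 downstream summits.

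Downstream of each RUNX gene the next coding gene was a member of the CLIC family, which encodes chloride intracellular channel proteins. CLIC6 follows RUNX1 at 69.6 kb, CLIC5 follows RUNX2 at 330 kb and CLIC4 follows RUNX3 at 55.2 kb. The highest fold within 1 kb of either of their ends was 26.7, 107 and 284, in that order. The strand of CLIC6 was not known here, so its value cannot be given to its start. The CLIC folds were therefore not ranked against those of the RUNX starts. Inside CLIC6, CLIC5 and CLIC4, 14.4%, 5.62% and 18.8% of the gene lay under peaks.

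Genes that act with RUNX proteins were described by lists, with the highest fold within 1 kb of either gene end. Across all 19974 coding genes 83% had a summit there and the median was 43.5-fold, taking 0 for genes without one. Of 17 cofactor genes, which carry the repression or activation by RUNX proteins, 14 had a summit and the median was 99.4-fold. TLE4 (305) and PRMT1 (263), a corepressor and an arginine methyltransferase, led with the histone methyltransferase KMT2A (190). SIN3A, EP300 and SUV39H1 had no summit there, but peaks of 329, 193 and 82.3-fold with a summit farther off reached within 1 kb of an end. Of 6 partners in leukaemia fusions, 4 had a summit, and the median was 60.4-fold. USP42 (205), CBFA2T3 (121) and ETV6 (63.5) led. MECOM and MYH11, the fusion partner of CBFB, had no summit there, with overlapping peaks of 76.7 and 8.38-fold.

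Of 12 blood transcription factors that act with RUNX1, 10 had a summit at an end, with a median of 19.7-fold. When any peak reaching within 1 kb of an end was counted, their median was 69.3-fold and that of all coding genes 56.2, so their place below the genome's median rests on the summit rule. The covered share of the gene had a median of 81.7%, against 12.7% over all coding genes, and ranged from 11.7% in ERG and 22.4% in ETS1 to 100% in 4 genes. Covered share differs with gene length (median 7.88% in coding genes of 50 kb or more), and the lists were not matched for length. LYL1 (191), SPI1 (109) and CEBPA (83.7) led at the ends, and GATA2 and TAL1, without a summit at an end, were wholly under peaks of up to 54.9 and 104.7-fold at their ends. RUNX1 itself, much longer than most of them, was 49.0% covered. Of 16 blood genes regulated by RUNX1, 14 had a summit, with a median of 39.5-fold and 59.9% covered. GFI1B (139), ITGA2B (113) and NFE2 (98.1) were highest, and CEBPE and IL3 had none, though peaks of 74.2 and 44.0-fold reached within 1 kb of them.

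Bone genes regulated by RUNX2 had the lowest median of these 6 lists, 8.496-fold over 8 genes (14.3 by any overlap), with 5 having a summit. SP7 (48.1), ALPL (24.3) and SPP1 (18.5), which encode an osteoblast transcription factor, an alkaline phosphatase and osteopontin, led. IBSP, MMP13 and DMP1 had no summit and no overlapping peak within 1 kb of an end. Of 8 T and NK cell genes regulated by RUNX3, 7 had a summit and the median was 40.05-fold, with ZBTB7B (170), CD3E (75.0) and CD4 (46.0) highest and IFNG without. Lists of 6 to 17 genes describe these genes and were given no test.

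**Figure D4:**
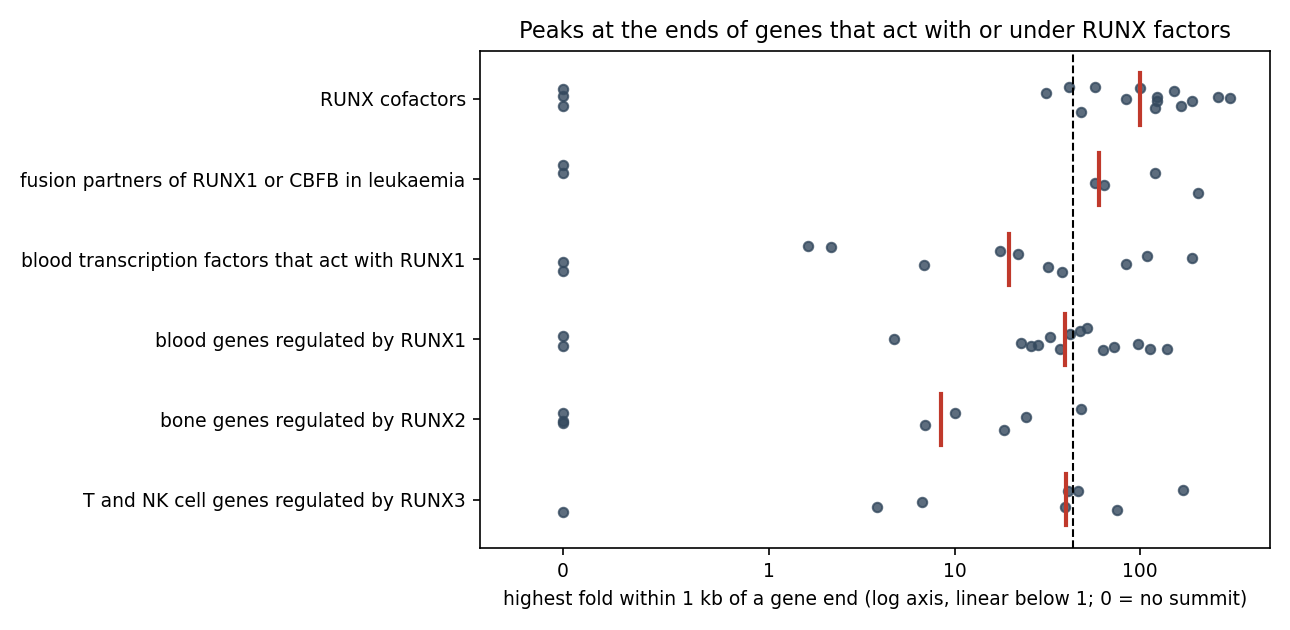
Each point is a gene, placed at the highest fold within 1 kb of either of its ends (log axis, linear below 1, 0 where no summit lay there), by list. Red bars are list medians and the dashed line is the median of all coding genes (43.5); cofactors (99.4) lie above it and bone genes (8.496) below.

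The labelled cell type was set against its markers in the same way. Of 9 blood progenitor markers, 8 had a summit at an end (ITGA2B 113, SPI1 109, KIT 59.8), and GATA2 was wholly covered. That count is near the share of all coding genes (83%). All 3 pluripotency markers had a summit too, so its presence did not set the progenitor list apart. Of the pluripotency markers, POU5F1 had 1.93-fold, NANOG 2.42 and SOX2 17.6. Among T cell markers CD3E had 75.0, CD8A 39.2 and CD3G none, and among osteoblast markers SP7 had 48.1, BGLAP 6.97 and IBSP none. The list medians were 21.9-fold for blood progenitor, 39.2 for T cell, 6.97 for osteoblast and 2.42 for pluripotency markers. By this measure the progenitor markers were thus not the highest list.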

How the data were processed

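ATAC-seq peaks were analysed from 1 list for the whole series. Per the submitters' processing notes, the tools were Bowtie2 2.2.8, Picard 2.2.4 and Trim Galore 0.6.5 and the builds GRCh38.p13 and hg38. Names of deposited peaks mention MACS 2.1.0 and GENCODE 36. Which libraries entered, how reads were shifted or filtered, and the depth per library are not given in the sources used here. The deposited list holds, for each peak, its position, the summit's enrichment as a linear fold (a ratio to background), the caller's score, and −log10 values of p and q. The score and q were not used.

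Fold and p gave a first value of the background. Near it, the value that brought the pileups closest to whole numbers was taken, 93.5 overlapping reads or fragments. Under it 100% of the 243638 pileups below 1000 came out whole to within 0.1. Since the background was chosen for that, this share is no separate check of it. Coordinates are 1-based on GRCh38. For counts of summits and for folds, a peak belonged to a gene or window by its summit. Covered shares took the part of every peak inside the gene or window, also where its summit lay outside. Gene ends came from a RefSeq table (GRCh38.p14), and strands and 34961 starts on chromosomes 1 to 22 and X from its promoter table. The strand of CBFB is from general knowledge. Other coding genes of unknown strand were read as plus for their flanks, so upstream percentiles include genes whose sides may be swapped. Exons and introns were not used here. Percentiles count genes or promoters below a value with ties split evenly, and are descriptions. No test was made, since the list has no samples, and the shared replicate numbers in the labels were not used.

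The genes and lists were chosen with earlier results of these data known. Named list genes are the 3 highest and up to 3 without a summit. Named peaks are the 5 highest and 3 widest inside each gene and the 3 highest on each side, though not all are named, and others named were chosen after their values were seen. RUNX1T1 and CBFA2T3 are in 2 lists. The counting of peaks and the first value of the background, from fold and p, were tested on simulated data. Tried as alternatives were the better 50% of peaks by deposited p, peaks of at least 10-fold, any overlap of at least 1 bp, start windows of 0.5 and 2.5 kb and flanks of 20 and 50 kb. Python 3.11.15, numpy 2.4.6, pandas 2.3.3, scipy 1.17.1 and matplotlib 3.10.9 were used.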

Additional observations from a re-analysis of the deposited data

How the results depend on the processing

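With the more significant 50% of the peaks, the summits inside RUNX1, RUNX2, RUNX3 and CBFB numbered 48, 17, 13 and 3, the covered share was 36.4%, 9.42%, 42.65% and 5.51%, and the flanks held 7.07, 5.05, 19.7 and 16.7 summits per 100 kb, against 15.2, 9.60, 37.9 and 25.3 with all peaks. Counting peaks of at least 10-fold gave 14, 8, 3 and 0 inside the genes. RUNX1 and RUNX3 stayed the most covered and CBFB the least. The fold at the 5′ end moved for RUNX1 alone, to 87.4 with any overlap and with 2.5 kb windows, both of which take in the peak 2.16 kb upstream. Any overlap, windows of 0.5 kb and flanks of 20 and 50 kb otherwise left counts within 1.5 times. No paired analysis was possible because the list holds no value per library, and for the same reason no replicate could be left out. The median fold at gene ends by any overlap, an alternative chosen after seeing the data, was 69.3 for the blood transcription factors (19.7 by summit) and 14.3 for the bone genes (8.496), and within 1.5 times for the other 4 lists.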
